A study of Mus musculus with 12 samples.

Results

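Acetylation of lysine 14 of histone H3 (H3K14ac) was examined at 1294 windows of 1 kb at transcription start sites (TSS) that were marked in proliferating mouse neural stem and progenitor cells and fell to the level of input chromatin when the cells were differentiated. They were chosen from 27095 TSS windows, of which 19283 had an input count of 10 or more in both stages. For each of these, P was the log2 of the summed wild-type ChIP count plus 1 over the proliferating input count plus 1, each per gene body total of its libraries, and D was the same ratio in differentiating cells. P was 1 or more in 3390 windows (17.6% of 19283), which are called marked here. D was 0.2 or less in 1294 of these (38.2% of the marked windows and 6.71% of the 19283), and above 0.2 in the other 2096. The 1294 are called the fall-to-input windows, because the measured values chose them and because, as given below, they were at background against input but not against the other controls. P, D and the stage changes of the wild-type ChIP and of the input are therefore descriptions and carry no test.

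The cells came from the cortex and ganglionic eminences of mouse embryos of stage E14.5. Proliferating cells grew as neurospheres, floating clusters of stem and progenitor cells, and differentiating cells were dissociated neurospheres cultured on a laminin substrate with cortical neuron medium. The groups were wild-type H3K14ac ChIP from proliferating (3 libraries) and differentiating cells (3 libraries), and, with 1 library in each stage, wild-type input chromatin, an IgG control whose genotype the labels do not give, and Hbo1 null cells with the H3K14ac antibody. The IgG libraries are taken as IgG from their titles, although their antibody label names the H3K14ac antibody, and every value over IgG rests on the title. The labels give no duration of differentiation, and do not say how Hbo1 was deleted or which replicate came from which of the 4 foetuses named. The p-values therefore reflect how far these libraries differ, in part perhaps for technical reasons.

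H3K14ac is laid down by HBO1 (KAT7), a histone acetyltransferase that works in complexes with ING and BRPF or JADE proteins. The mark lies on nucleosomes around the starts of active genes, and acetylated lysines at such sites are bound by bromodomain proteins of the transcription machinery. Neural progenitors that leave the cell cycle turn down genes of division and change their programme of transcription factors, while genes that every cell uses stay active.

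The promoters of 4 genes with high summed proliferating ChIP counts are shown as examples of strongly marked starts that fell to input. They are the 4 highest, predicted and clone names aside, among those with an entry in the RefSeq promoter table (GRCm38.p6), which reaches from 250 bases before to 50 bases after a start and may use another start than the counted window. Capitals mark 5 motifs searched on both strands: the GC box GGGCGG, the CCAAT box CCAAT, the TATA box TATAAA, the cyclic AMP response element TGACGTCA and the AP-1 site TGANTCA. Ptp4a1 is chr1:30949706-30950005, minus strand. Fosb is chr7:19309996-19310295, minus strand. Nr4a2 is chr2:57123954-57124253, minus strand. Syne2 is chr12:75818068-75818367, plus strand.
Ptp4a1: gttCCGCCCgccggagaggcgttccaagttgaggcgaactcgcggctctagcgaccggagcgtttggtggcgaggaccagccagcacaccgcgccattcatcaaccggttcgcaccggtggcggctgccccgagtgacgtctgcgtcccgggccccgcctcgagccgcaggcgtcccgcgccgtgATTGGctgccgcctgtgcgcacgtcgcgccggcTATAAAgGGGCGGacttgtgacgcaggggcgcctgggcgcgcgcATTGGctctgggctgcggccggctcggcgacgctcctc
Fosb: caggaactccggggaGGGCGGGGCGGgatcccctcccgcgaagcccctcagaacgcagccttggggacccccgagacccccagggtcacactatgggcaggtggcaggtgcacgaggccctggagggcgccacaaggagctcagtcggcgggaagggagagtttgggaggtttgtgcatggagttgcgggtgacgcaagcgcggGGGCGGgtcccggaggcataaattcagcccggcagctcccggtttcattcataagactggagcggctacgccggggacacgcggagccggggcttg
Nr4a2: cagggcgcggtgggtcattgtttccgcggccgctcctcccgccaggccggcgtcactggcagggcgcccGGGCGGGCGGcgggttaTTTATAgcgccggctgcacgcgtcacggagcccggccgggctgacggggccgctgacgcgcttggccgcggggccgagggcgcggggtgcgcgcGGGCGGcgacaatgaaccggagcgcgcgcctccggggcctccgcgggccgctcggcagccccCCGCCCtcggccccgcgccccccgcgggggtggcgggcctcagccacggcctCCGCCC
Syne2: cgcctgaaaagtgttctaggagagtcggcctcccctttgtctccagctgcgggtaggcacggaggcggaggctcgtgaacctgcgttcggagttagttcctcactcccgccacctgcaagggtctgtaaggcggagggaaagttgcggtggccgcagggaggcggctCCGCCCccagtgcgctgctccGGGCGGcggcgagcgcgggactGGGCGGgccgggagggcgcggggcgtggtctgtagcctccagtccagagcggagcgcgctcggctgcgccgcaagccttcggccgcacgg
All 4 hold GC boxes, from 2 in Ptp4a1 to 5 in Nr4a2. Ptp4a1 also holds 2 CCAAT boxes and 1 TATA box, and Nr4a2 holds 1 TATA box. None of the 4 holds the cyclic AMP response element or the AP-1 site as spelled. CpG dinucleotides number 45 in Ptp4a1, 25 in Fosb, 52 in Nr4a2 and 35 in Syne2, and the GC content runs from 68.3% in Fosb to 81.7% in Nr4a2.

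Among protein-coding genes, 977 of 1207 fall-to-input genes (80.9%), 1577 of 1971 other marked genes (80.0%) and 12698 of 15834 genes with enough input (80.2%) had a promoter entry. The fall-to-input promoters were CpG-rich: the observed over expected CpG ratio had a median of 0.84, with 0.844 at other marked genes and 0.615 at all genes with enough input. A ratio of 0.6 or more was found in 85.4%, 84.0% and 51.3% of the promoters of these 3 sets. The GC box stood in 71.4% of the fall-to-input promoters, in 72.5% of the other marked promoters and in 48.6% of all. The TATA box stood in 6.35%, 6.59% and 12.2%, and the AP-1 site in 3.48%, 3.17% and 6.74%. In the GC box, the TATA box and the AP-1 site the fall-to-input promoters lay closer to the other marked promoters than to the average. The letters TTTGAA of the cell cycle homology region went the other way, with 13.6% of the fall-to-input promoters, 8.31% of the other marked promoters and 15.2% of all. CCAAT boxes stood in 39.7% of the fall-to-input promoters, 35.6% of the other marked promoters and 39.4% of all, and the cyclic AMP response element in 3.99%, 4.63% and 2.47%. A match of letters is not a bound site.

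A gene on the opposite strand began within 1000 bases upstream of 148 of 977 fall-to-input genes (15.1%), against 171 of 1577 other marked genes (10.8%) and 1203 of 12698 genes with enough input (9.47%). Such divergent neighbours share one stretch of promoter. Taking each window as the 1000 bases from the RefSeq start into the gene, 11 pairs of fall-to-input genes shared bases and so reads, among them Pigp and Ttc3, and Tomm6 and Tomm6os. The exact position of the authors' windows is not given in the sources used here.

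Gene body totals of the wild-type ChIP were 4542787, 3992697 and 7611239 counts in proliferating and 12549913, 12782070 and 17074249 counts in differentiating cells. TSS windows took 4.56% to 4.90% of these in proliferating and 3.24% to 3.68% in differentiating cells. The Hbo1 null libraries held 64071 and 320601 gene body counts, and only their sums over many windows were used. Summed over the Y-linked genes Uty, Kdm5d, Ddx3y and Eif2s3y, the gene bodies held 120 counts per 1000000 gene body counts (CPM) in differentiating replicate 3, 22.9 in proliferating replicate 1 and 3.98 to 5.55 in the other 4 wild-type ChIP libraries. The inputs held 3.20 and 3.86, the IgG libraries 120 and 133 and the Hbo1 null libraries 31.2 and 78.0. So libraries differed in Y-linked signal in a way the groups do not explain, and the IgG and null libraries and differentiating replicate 3 did not match the inputs in this. As a check of the cell type, 13 of the 19 neural stem and progenitor genes with enough input were marked in proliferating cells. The share over all windows with enough input was 17.6%. Among other cell types 4 of 9 oligodendrocyte lineage, 4 of 17 neuron, 2 of 9 astrocyte and 1 of 5 mesenchymal genes were marked. Of the microglial genes 0 of 10 were marked, and of the endothelial genes 0 of 8.

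**Figure D1:**
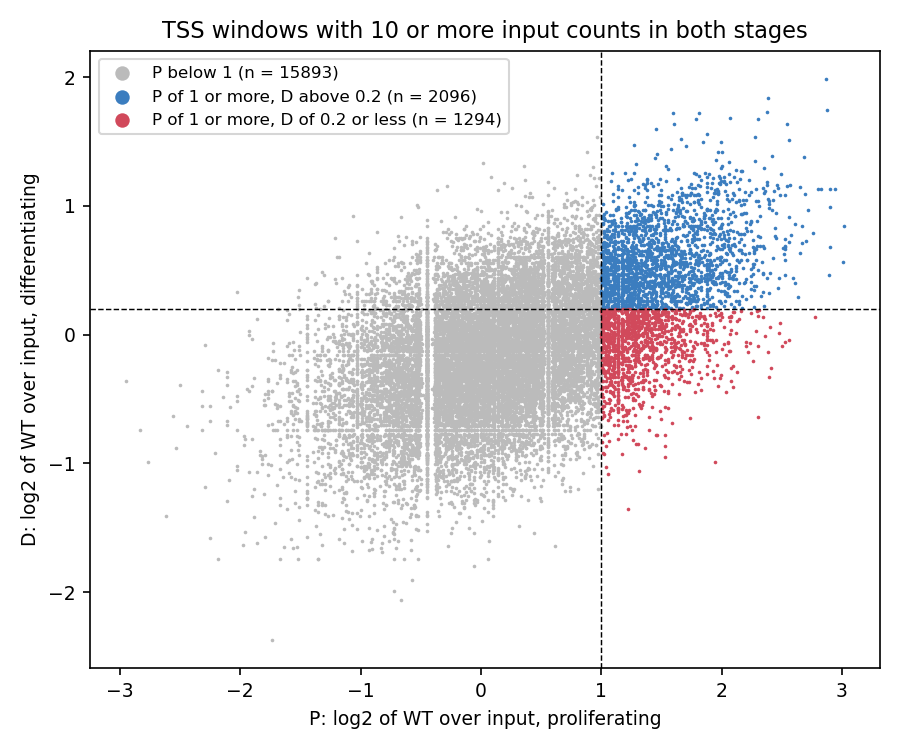
Each point is a TSS window with 10 or more input counts in both stages, placed by P (log2 of wild-type ChIP over input, proliferating) and D (the same, differentiating), and dashed lines mark P of 1 and D of 0.2. The 1294 fall-to-input windows fill the lower right corner and run on without a gap into the 2096 other marked windows.

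The fall-to-input windows sat close to both thresholds. Their P had a median of 1.26 and a maximum of 2.78, against a median of 1.45 in other marked windows, and only 51 (3.94%) had a P of 2 or more against 271 (12.9%). Their D had a median of -0.05 and reached down to -1.35, and 762 of them (58.9%) lay below 0, against 57.9% of all windows with enough input. A D below -0.5 was found in 7.26% of them and in 20.3% of all. Just inside the threshold on P were Sdhb, Nhlrc1 and Dusp4, with a P of 1.00 each, and just outside were Casp8, G0s2 and Mdm4 with 0.997. Just inside the threshold on D were Ramac, Capza2 and Tmem128 with 0.198, and just outside were Bcl10, Nudt4 and Slc2a13 with 0.201. No gap separates the set from its neighbours. The summed wild-type counts behind a window were small, from 29 to 113 with a median of 47 in proliferating cells and from 29 to 113 with a median of 58 in the deeper differentiating libraries.

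Taken library by library, the windows met the rule less evenly than their sums. All 3 proliferating libraries were at or above 1 in 650 of the 1294 windows (50.2%, against 10.5% of all windows with enough input). All 3 differentiating libraries were at or below 0.2 in 509 (39.3%), a smaller share than the 46.2% over all windows. All 6 were on their side in 221 (17.1%, against 1.16% of all). Differentiating replicates 1, 2 and 3 were at or below 0.2 in 722 windows (55.8%), 1126 (87.0%) and 1069 (82.6%), against 58.1%, 72.3% and 71.7% of all windows with enough input. In counts per 1000000 gene body counts (CPM), all 3 proliferating values lay above all 3 differentiating values in 1053 of the 1294 windows (81.4%). The same held for 28.5% of all windows with enough input and for 76.5% of the other marked windows. The rule used this contrast, so these shares are given as a description only.

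Choosing the windows without one wild-type library and then reading that library gives values the choice did not use, although the same input remains the denominator. Chosen without proliferating replicate 1, 2 or 3, the windows had medians of 1.12, 1.28 and 1.18 log2 over input in the library left out, against 0.39, 0.31 and 0.26 over all windows with enough input. Chosen without differentiating replicate 1, 2 or 3, they had medians of 0.28, -0.18 and -0.03, against 0.09, -0.11 and -0.11 over all windows with enough input and 0.85, 0.34 and 0.51 in other marked windows. A low proliferating input count helped to choose the windows and also raises these medians. Over IgG, which the choice did not use, the sums were 1.93-fold, 2.21-fold and 2.13-fold in the proliferating libraries left out. The other marked windows stood there at 2.06-fold, 3.0-fold and 2.69-fold, and all windows with enough input at 1.36-fold, 1.47-fold and 1.45-fold. The proliferating signal was thus above that of all windows over a control outside the choice. In differentiating cells the library left out lay nearer to all windows than to the other marked windows when read over input, which the choice also used, and replicate 1 ended above the threshold of 0.2. Read over IgG, which the choice did not use, the sums of the windows chosen without differentiating replicate 1, 2 or 3 were 1.71-fold, 1.25-fold and 1.39-fold in the library left out. Over IgG the other marked windows stood at 1.90-fold, 1.41-fold and 1.62-fold in these libraries, and all windows with enough input at 1.25-fold, 1.11-fold and 1.17-fold. Over IgG the chosen windows lay between both sets in each of these 3 differentiating libraries.

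**Figure D2:**
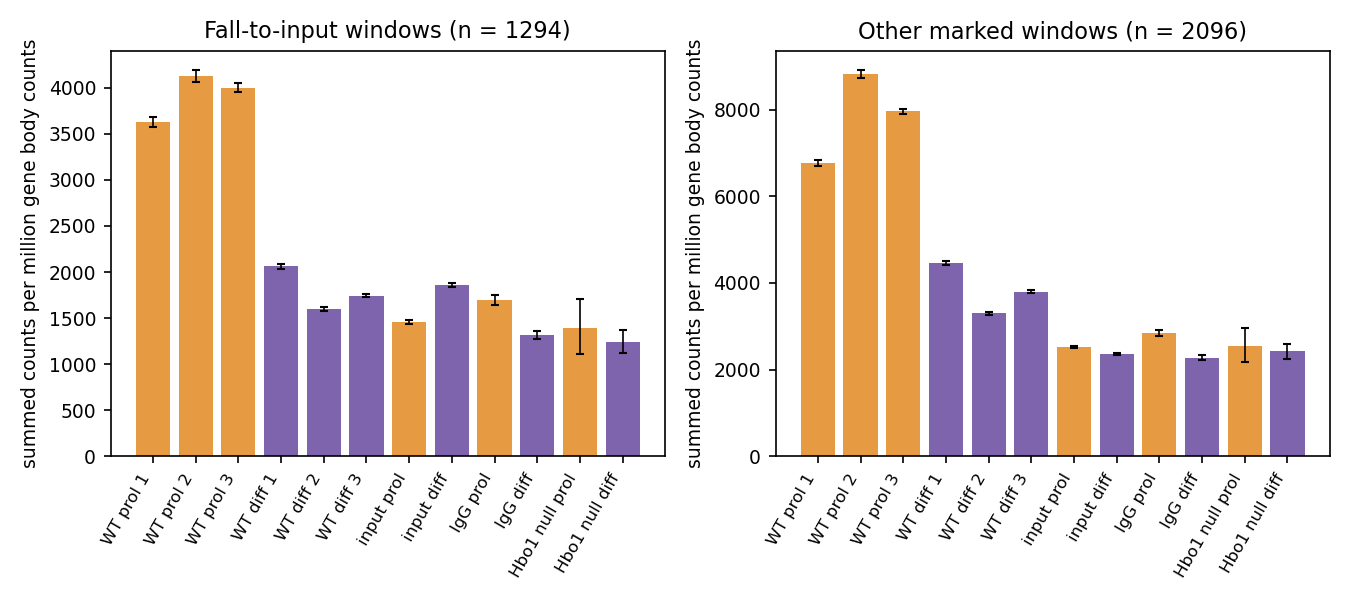
Bars give the counts summed over the fall-to-input windows (left) and the other marked windows (right) per 1000000 gene body counts in each of the 12 libraries, orange for proliferating (prol) and purple for differentiating (diff), with 95% exact Poisson intervals of the counts. The wild-type ChIP fell in both sets, and the input was higher in differentiating cells in the fall-to-input windows only.

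Summed over the 1294 windows, the wild-type ChIP held 3632, 4129 and 4002 CPM in proliferating cells (3921 ± 258, SD, n = 3) and 2063, 1597 and 1744 CPM in differentiating cells (1801 ± 238, SD, n = 3). The proliferating input held 1456 CPM and the differentiating input 1857 CPM. The wild-type sums did not overlap between stages, and those of differentiating cells lay on both sides of their input. The ChIP over input fell from 2.70-fold to 0.966-fold. In the other marked windows the wild-type ChIP held 6766, 8821 and 7962 CPM in proliferating and 4462, 3302 and 3799 CPM in differentiating cells, and the input 2528 and 2357 CPM.

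The change in ChIP signal alone was similar in both sets. Differentiating over proliferating, the wild-type sum changed by -1.13 log2 in the fall-to-input windows and by -1.03 log2 in the other marked windows, against -0.48 log2 over all windows with enough input. The input, which the rule also used, moved by 0.35 log2 in the fall-to-input windows, by -0.10 log2 in the other marked windows and by -0.07 log2 over all. Input was higher in differentiating cells in 1081 of the 1294 windows (83.5%), in 39.5% of the other marked windows and in 43.3% of all. A low proliferating and a high differentiating input both help a window to meet the rule, so this input difference comes with the choice and supports nothing beyond it. With input counts whose medians were 13 in proliferating and 18 in differentiating cells, and 1 input library per stage, a stage difference of input in a window cannot be told apart from counting error.

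**Figure D3:**
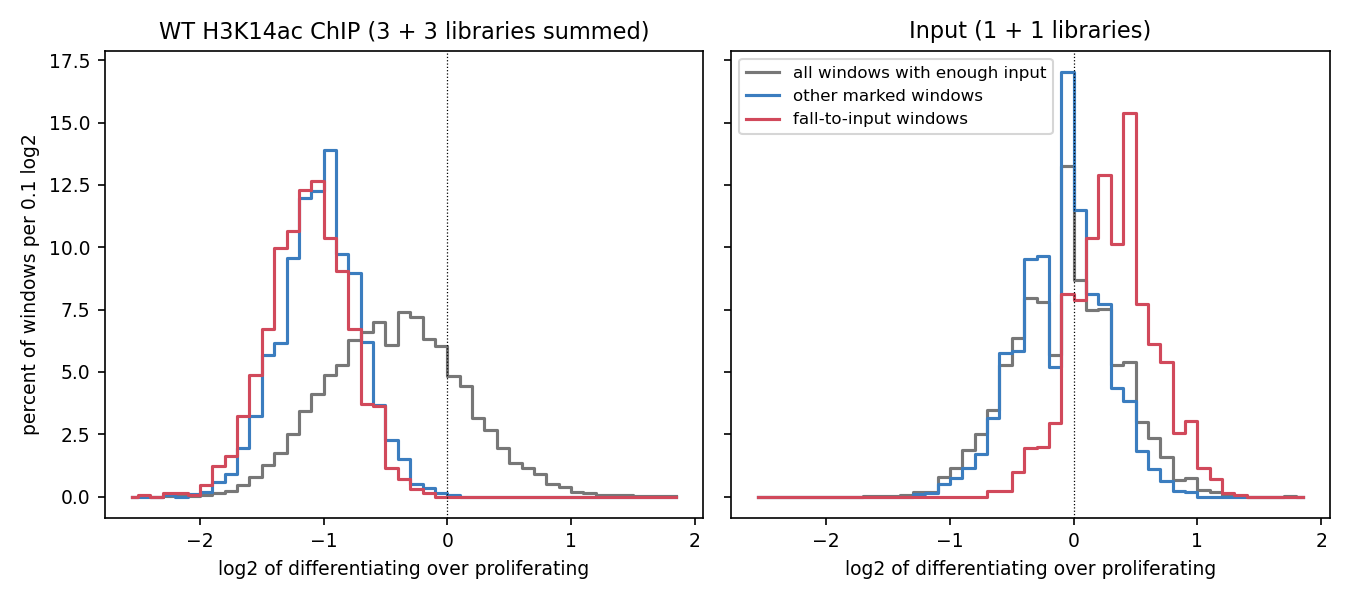
Curves give the percent of windows per 0.1 step in the log2 of differentiating over proliferating signal, for the summed wild-type ChIP (left) and input (right). In the ChIP the fall-to-input windows (median -1.11) and the other marked windows (median -1.03) nearly coincide, and in the input they separate (medians 0.32 and -0.10).

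How often a marked window met the rule went with its input count in differentiating cells. Among marked windows, 14.0% of those with 10 to 14 differentiating input counts fell to input, 48.1% of those with 15 to 19 and 81.3% of those with 20 to 29. The proliferating input count went the other way, with 41.9%, 32.4% and 27.8% over the same classes. The share also dropped with the strength of the mark, from 46.1% at a P of 1 to 1.5 to 9.09% (4 of 44) at 2.5 or more. With both inputs summed into 1 denominator for both stages, 963 of the 1294 windows kept a P of 1 or more, 883 kept a D of 0.2 or less and 645 (49.8%) kept both. The rule with the summed input gave 1060 windows, of which those 645 are 60.8%.

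IgG and Hbo1 null libraries took no part in the choice. IgG gave 1695 CPM over the 1294 windows in proliferating cells and 1319 CPM in differentiating cells, from 4282 and 3655 counts. That is a change of -0.36 log2 (95% counting interval -0.43 to -0.30), with -0.32 in the other marked windows and -0.20 over all. The null libraries held 1389 and 1238 CPM from 89 and 397 counts, a change of -0.17 log2 whose interval of -0.50 to 0.17 spans 0. So of the controls the input was higher over these windows in differentiating cells, while IgG was lower. With TSS totals in place of gene body totals, the IgG change was -0.16 log2.

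Measured against IgG, the wild-type sum was 2.32-fold higher in proliferating and 1.36-fold higher in differentiating cells. The 3 differentiating libraries were 1.56-fold, 1.21-fold and 1.32-fold above IgG, against 1.18-fold for all windows with enough input and 1.69-fold for the other marked windows. Against the null libraries the sum was 2.83-fold higher in proliferating and 1.45-fold higher in differentiating cells, with a counting interval for the latter of 0.39 to 0.68 log2. Over the null libraries all windows with enough input stood at 1.64-fold in proliferating and 1.15-fold in differentiating cells. The other marked windows stood there at 3.08-fold and 1.59-fold. The name of lost windows therefore holds against input and not against IgG or the null libraries, where the sum fell but stayed above the control. Counting intervals cover counting error only, and IgG and null are 1 library per stage. With IgG as the denominator, 310 of the 1294 windows (24.0%) met the rule, among 1902 windows in all. A window held a median of 3 IgG counts in either stage, which is too few to place a single window.

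By kind, 1207 of the 1294 genes were protein-coding (38.0% of the 3178 marked protein-coding genes), 63 were long noncoding RNA genes (40.9% of 154), 2 were transcribed pseudogenes and 1 was another RNA gene. The remaining 21 had no RefSeq match. Small RNA genes of RefSeq's own classes (snoRNA, miRNA, snRNA, tRNA) had no window with enough input. Among the long noncoding genes were Mir9-3hg, host of a miR-9 gene that regulates neural progenitors, Snhg5, a snoRNA host, and Trp53cor1, a target gene of p53. Kind of gene thus hardly moved the share of marked windows that fell.

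Gene length had a median of 22864 bases, against 29857 bases for other marked genes and 13292 bases for all genes with enough input. Genes of 100 kb or more made up 12.1%, 15.2% and 8.57% of these sets. The share of marked windows that fell ran from 32.2% for genes of 100000 to 400000 bases to 42.2% for genes of 5000 to 20000 bases. The longest were Lrp1b, a lipoprotein receptor gene of 2056826 bases, and Prkg1, a cGMP-dependent kinase gene of 1200547 bases. Only 9 genes were 1000 bases or shorter, among them the histone genes H2bc13, H2ac13, H3c11, H2ac4 and H2ac18, and for these the window and the gene body hold the same counts.

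On chromosome X, 20 of 27 marked windows (74.1%) fell to input, against 1274 of 3363 (37.9%) on autosomes. Few windows there were marked, 27 of 731 with enough input (3.69%, against 17.6% of all). Of the 731 windows 2.74% fell to input, against 6.71% of all, so chromosome X was not over-represented in the set. Chromosome X held 3.64%, 3.95% and 2.34% of the gene body counts in the differentiating and 2.49%, 3.59% and 3.31% in the proliferating wild-type libraries. The lowest differentiating value was that of replicate 3, the library with many Y-linked counts. Without it the share on chromosome X was 15 of 27 (55.6%) and that on autosomes 34.9%, and 15 of the 20 windows were kept. The part of the libraries' Y-linked signal in this was not tested beyond that.

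**Figure D4:**
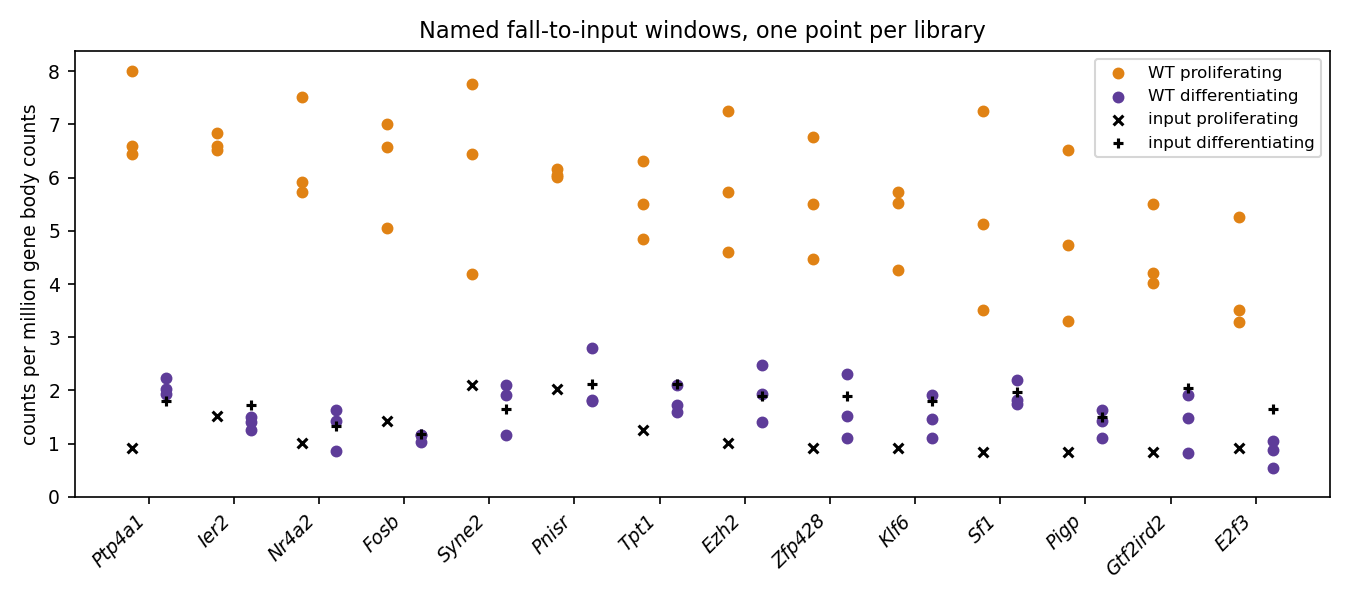
Points give the counts per 1000000 gene body counts of 14 named fall-to-input windows in each wild-type ChIP library (orange, proliferating; purple, differentiating) and in the inputs (crosses, proliferating; plus signs, differentiating). In each gene the 3 proliferating values lie above the 3 differentiating values, which lie near or below the differentiating input in most genes. The rule used this contrast, and 81.4% of all fall-to-input windows have no overlap.

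The highest summed proliferating count, 113, was that of the long noncoding gene 3010003L21Rik, whose window shares bases with that of Sinhcaf. Ptp4a1 followed with 111. Ptp4a1, a phosphatase that promotes growth, held 6.60, 8.01 and 6.44 CPM in proliferating and 2.23, 2.03 and 1.93 CPM in differentiating cells. Its input was 0.927 and then 1.81 CPM, 11 and 23 counts. The ChIP groups were far apart, and the input count behind the fall to background was also higher in differentiating cells. Syne2, which encodes the nuclear envelope protein nesprin-2, held 4.18, 7.76 and 6.44 CPM and then 1.91, 1.17 and 2.11 CPM. Its input went the other way, from 2.11 to 1.65 CPM, so its ratio fell although its input was lower in differentiating cells. Pnisr, which encodes a nuclear protein with arginine and serine repeats, held 6.16, 6.01 and 6.04 CPM and then 2.79, 1.80 and 1.82 CPM, over an input of 2.02 and 2.13 CPM.

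Tpt1 (chr14:75845256-75848303, with gene spans here and below from RefSeq for GRCm38), a widely expressed gene for a growth-associated protein, held 4.84, 5.51 and 6.31 CPM and then 1.59, 1.72 and 2.11 CPM, with an input of 1.26 and 2.13 CPM. Sf1 (chr19:6363673-6378038), a splicing factor that recognises the branch point, held 3.52, 7.26 and 5.12 CPM and then 1.75, 2.19 and 1.82 CPM. Its input went from 0.842 to 1.97 CPM. Pigp, an enzyme subunit of GPI anchor synthesis whose window overlaps that of Ttc3, held 3.30, 6.51 and 4.73 CPM and then 1.43, 1.10 and 1.64 CPM. In these 3 genes the stages did not overlap, as in 81.4% of all fall-to-input windows. The proliferating input count was among the smallest allowed for Sf1 and Pigp, at 10 counts each. Gtf2ird2, of a transcription factor family, held 5.50, 4.01 and 4.20 CPM and then 1.91, 1.49 and 0.820 CPM. Zfp428, of the zinc finger genes, held 5.50, 6.76 and 4.47 CPM and then 2.31, 1.10 and 1.52 CPM. Both had input counts that more than doubled, from 10 to 26 and from 11 to 24.

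Immediate early genes are switched on within minutes of growth factor or neuronal signals. Of those with enough input 14 of 18 were marked, against 17.6% of all windows. Of the 14 marked genes 9 fell to input (64.3%, against 38.2% of all marked windows). These are the AP-1 subunit genes Fos and Fosb, the zinc finger factors Egr2 and Klf6, the nuclear receptors Nr4a1 and Nr4a2, the stress factor Atf3, and Ier2 and Ier5. The 5 marked genes that did not fall to input were Jun, Junb, Fosl2, Dusp1 and Srf. Over all 18 windows the ChIP over input was 1.77 ± 0.11 log2 in proliferating and 0.17 ± 0.30 log2 in differentiating cells (SD, n = 3). The wild-type sum of the list changed by -1.71 log2, against -0.48 log2 over all windows with enough input, and its input changed by -0.12 log2. With the summed input 10 of 16 marked windows of the list fell (62.5%, against 28.7% of all marked windows). With TSS totals 5 of 9 fell (55.6%, against 31.2%). With IgG as the denominator 4 of 10 fell (40.0%), a smaller share than the 49.3% of all marked windows. The list was chosen with results of these data known, and its direction is no independent evidence.

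Fosb held 5.06, 7.01 and 6.57 CPM in proliferating cells and 1.04, 1.17 and 1.17 CPM in differentiating cells. Ier2 (chr8:84661331-84662852) held 6.60, 6.51 and 6.83 CPM and then 1.51, 1.25 and 1.41 CPM. Nr4a2, which is also needed in dopaminergic neurons, held 5.72, 7.51 and 5.91 CPM and then 1.43, 0.861 and 1.64 CPM. The groups of these 3 genes lay far apart. The libraries of Ier2 varied little within either stage. Fosb ran from 5.06 to 7.01 CPM in proliferating cells, and Nr4a2 from 0.861 to 1.64 CPM in differentiating cells. Their inputs were 1.43 and 1.18 CPM for Fosb, 1.52 and 1.73 CPM for Ier2, and 1.01 and 1.34 CPM for Nr4a2. Klf6 (chr13:5861489-5870393) held 5.72, 4.26 and 5.52 CPM and then 1.91, 1.10 and 1.46 CPM. Fos held 3.96, 4.51 and 6.04 CPM and then 1.75, 1.10 and 0.996 CPM over inputs of 1.10 CPM in both stages. Among the 9 genes the wild-type change had a median of -1.82 log2 and ran from -2.45 to -1.07 log2. In all 9 the 3 proliferating values lay above the 3 differentiating ones. The rule used this contrast, and the same held for 81.4% of all fall-to-input windows and 76.5% of other marked windows. The 5 other marked genes of the list had a median change of -1.61 log2, so their signal too was lower in differentiating cells but ended above input.

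The promoters of 8 of the 9 genes have entries, and all 8 hold a GC box while none holds the cyclic AMP response element or the AP-1 site as spelled. The shares over all promoters are 48.6%, 2.47% and 6.74%. The Fosb and Nr4a2 promoters printed above are 2 of these 8. 

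Of 32 cell cycle and mitosis genes with enough input, 11 were marked, and all 11 fell to input, against 38.2% of all marked windows. They include the cyclins Ccna2, Ccnb1 and Ccne1, the kinases Cdk2, Cdk4 and Plk1, the E2F factors E2f2 and E2f3, the proliferation marker Mki67, and Anln and Ect2, which act in cytokinesis. Over the 32 windows the ChIP over input was 0.92 ± 0.11 log2 in proliferating and -0.26 ± 0.09 log2 in differentiating cells (SD, n = 3). The wild-type sum of the list changed by -1.12 log2 and its input by 0.08 log2. With the summed input, 9 windows of the list were marked and all 9 fell to input, against 28.7% of all marked windows. With IgG as the denominator 10 were marked and 6 fell, against 49.3% of all marked windows. With TSS totals 3 were marked and all 3 fell, against 31.2%. This list too was chosen with results of these data known.

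E2f3 (chr13:29906575-29986064), a transcription factor that drives entry into S phase, held 3.52, 5.26 and 3.28 CPM in proliferating and 0.877, 0.548 and 1.05 CPM in differentiating cells, with an input of 0.927 and 1.65 CPM. It had a D of -0.99. Mki67 (chr7:135689784-135716450) held 3.52, 3.26 and 5.26 CPM and then 1.91, 0.626 and 0.879 CPM, with an input of 1.26 and 1.10 CPM. Ccna2, the cyclin of S phase and mitotic entry, held 3.52, 3.01 and 4.07 CPM and then 1.20, 1.10 and 0.820 CPM, with an input of 1.52 and 1.50 CPM. In these 3 genes the stages did not overlap, and in Mki67 and Ccna2 the input hardly changed. Of the 11 fall-to-input genes of the list, 8 had a higher input in differentiating cells, and the median input change of the 11 was 0.56 log2. Over all fall-to-input windows the input was higher in 83.5%, with a median change of 0.32 log2. Plk1, the kinase of mitotic entry, held 2.42, 2.50 and 2.23 CPM and then 1.12, 0.939 and 0.761 CPM. Cdk4, the kinase of G1, held 4.62, 2.25 and 3.68 CPM and then 2.39, 1.10 and 2.17 CPM. Ccne1 held 2.64, 3.01 and 1.05 CPM and then 0.478, 1.49 and 0.820 CPM. For Cdk4 and Ccne1 the stages overlapped, and they did not in the other 9 genes. The rule used this contrast, and 81.4% of all fall-to-input windows had no overlap. Ccna2, Plk1, Cdk4, Ccne1 and Fos were picked for their values here after these had been seen.

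With the input of each stage, most marked windows of the DNA repair and replication lists fell to input. Of all windows with enough input 17.6% were marked, and 38.2% of the marked windows fell. With the summed input 3 of 7 marked repair windows and 1 of 3 marked replication windows fell, against 28.7% of all marked windows. With IgG as the denominator 3 of 3 and 3 of 5 fell, against 49.3%. With TSS totals neither list had a marked window. DNA repair had 6 marked windows among 28 and 5 fell, among them Atm, which signals strand breaks, the nuclease gene Mre11a, the mismatch repair gene Msh6 and the helicase gene Wrn. Msh6 held 2.20, 3.26 and 3.28 CPM and then 1.51, 1.25 and 1.17 CPM. DNA replication had 6 marked among 38 and 4 fell: Fen1, Gmnn, Mcm7 and Orc5. Mcm7, a subunit of the replicative helicase, held 2.42, 2.00 and 2.89 CPM and then 1.04, 1.02 and 1.05 CPM. Promoter entries were found for 16 of the 20 protein-coding fall-to-input genes of the cell cycle, replication and repair lists. A CCAAT box stood in 11 of them (68.8%, against 39.4% of all promoters) and TTTGAA in 6 (37.5%, against 15.2%). Other motifs were searched too. The GC box stood in 14 (87.5%, against 48.6%) and the TATA box in 2 (12.5%, against 12.2%). The E2F letters TTTGGCGC stood in 1 (6.25%, against 0.78%), the cyclic AMP response element in 1 (6.25%, against 2.47%) and the AP-1 site in 0 (against 6.74%). Over the whole replication list the wild-type sum changed by -0.77 log2, with its ChIP over input going from 0.55 ± 0.09 to -0.21 ± 0.09 log2 (SD, n = 3).

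Of the 63 listed histone genes transcribed in S phase, only 24 had enough input, against 19283 of 27095 windows in all. Of these 24 genes 16 were marked, against 17.6% of all windows with enough input. Of the 16 marked genes 8 fell to input, against 38.2% of all marked windows. H3c15 held 5.94, 3.51 and 4.47 CPM and then 1.83, 1.25 and 1.64 CPM. H1f3 held 3.96, 4.76 and 6.18 CPM and then 3.19, 1.33 and 2.05 CPM. The stages did not overlap in either, as in 81.4% of all fall-to-input windows. Histone genes are near-identical copies in clusters, so the counting could have split their reads, and single members are uncertain.

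**Figure D5:**
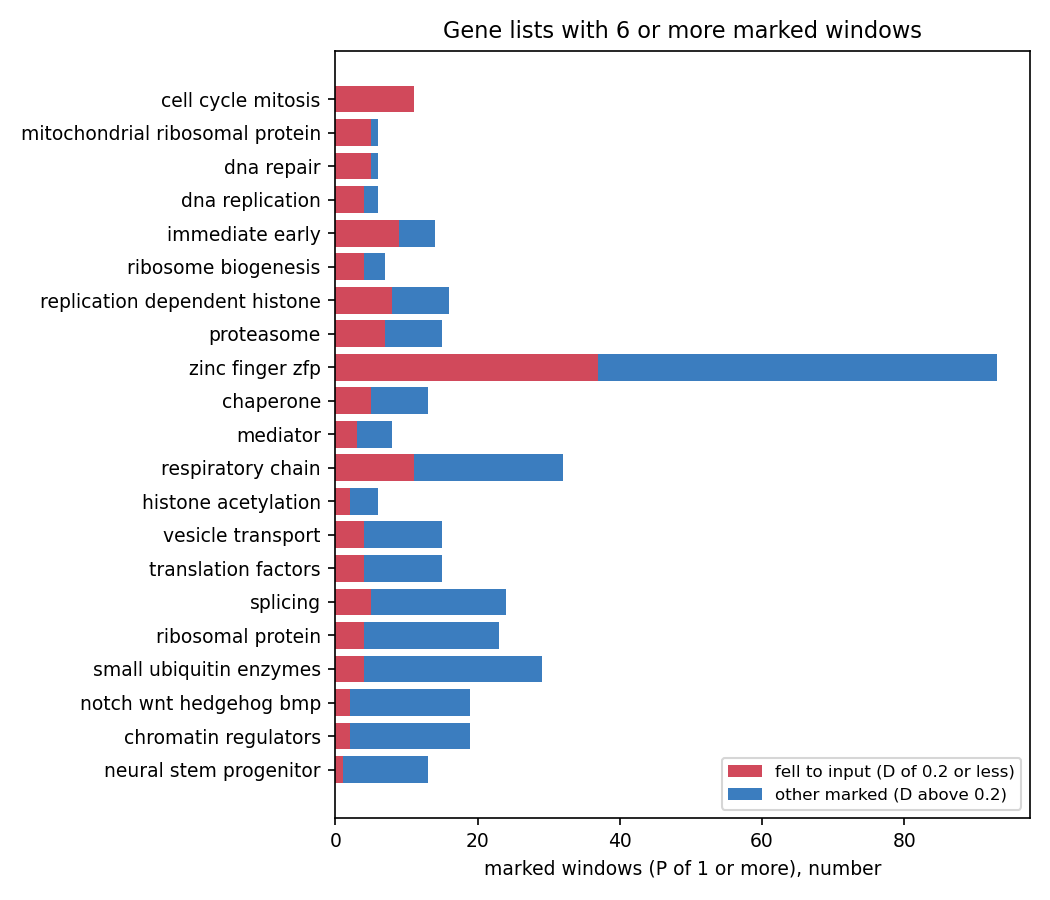
Bars give the number of marked windows (P of 1 or more) in each gene list with at least 6 of them, red for those that fell to input (D of 0.2 or less) and blue for the others. Cell cycle and mitosis stands at the top with 11 of 11, and neural stem and progenitor genes at the bottom with 1 of 13, against 38.2% over all marked windows.

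Genes of the mitochondrial machinery were spread over both sets. Of respiratory chain genes 32 of 76 were marked and 11 fell to input (34.4%, near the 38.2% of all marked windows). Among these were Sdhb of complex II, Ndufs1 and Ndufc1 of complex I, Uqcr10 and Uqcrh of complex III, Cox6c of complex IV and Atp5l of the ATP synthase. Cox6c held 4.40, 3.01 and 3.28 CPM and then 2.95, 1.49 and 1.17 CPM. In all 11 genes the input was higher in differentiating cells. Of mitochondrial ribosomal protein genes only 6 of 65 were marked, and 5 fell. With the summed input 6 of 12 marked windows of this list fell, against 28.7% of all marked windows. Mrpl48 held 4.84, 8.01 and 4.73 CPM and then 1.75, 1.33 and 1.41 CPM.

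Genes whose products make, fold and remove proteins also lay in both sets, and 38.2% of all marked windows fell to input. Proteasome genes had 15 marked windows among 44, and 7 fell to input (46.7%). Among these was the activator Psme4, with 3.96, 6.76 and 5.91 CPM and then 2.07, 1.88 and 1.58 CPM. Chaperones had 13 among 22, and 5 fell (38.5%). Both cytosolic HSP90 genes were in the set: Hsp90aa1 with 4.18, 6.76 and 5.26 CPM and then 2.31, 1.33 and 1.82 CPM, and Hsp90ab1 with 3.52, 4.51 and 4.20 CPM and then 1.75, 1.17 and 1.46 CPM. In both HSP90 genes the stages did not overlap, as in 81.4% of all fall-to-input windows. Translation factors had 15 marked windows, of which 4 fell, and ribosomal proteins had 23, of which 4 fell. With IgG as the denominator 4 of 14 marked translation factor windows and 10 of 20 marked ribosomal protein windows fell. The share of all marked windows was then 49.3%. Ribosome biogenesis had 7, of which 4 fell, Npm1, Rrp1, Utp18 and Utp4. With the summed input 1 of 8 marked windows of this list fell, against 28.7% of all marked windows. Ribosomal and histone genes have pseudogenes or near copies, which makes single members uncertain.

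Splicing genes had 24 marked windows among 36, and 5 fell (20.8%, against 38.2% of all marked windows). These were Sf1, Snrpe, Snrpg, Srsf5 and U2af2. Vesicle transport had 15, of which 4 fell, and small ubiquitin enzymes 29, of which 4 fell. Mediator, the bridge between transcription factors and RNA polymerase II, had 8, of which 3 fell (37.5%), Med15, Med25 and Med27. The zinc finger genes named Zfp had 93 marked windows among 313, and 37 fell (39.8%), close to the share over all marked windows. Olfactory receptor genes, which are silent outside the nose, had 3 marked windows among 821, of which Olfr288 and Olfr804 fell. Olfr288 held 3.08, 0.501 and 1.71 CPM and then 1.51, 1.33 and 2.05 CPM, so its stages overlapped and 1 proliferating value lay below the input of 0.842 CPM.

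Regulators of chromatin mostly stayed above input, while 38.2% of all marked windows fell to it. Of 19 marked chromatin regulator genes 2 fell, Ezh2, the methyltransferase of Polycomb, and Kmt2b, a methyltransferase of H3K4. Ezh2 (chr6:47530274-47595270) held 5.72, 7.26 and 4.60 CPM in proliferating and 2.47, 1.41 and 1.93 CPM in differentiating cells, with an input of 1.01 and 1.89 CPM. Kmt2b held 4.40, 4.26 and 1.84 CPM and then 1.51, 0.939 and 0.879 CPM. Of 6 marked histone acetylation genes 2 fell, Ing2 and Ing5, both readers of methylated H3K4, of which Ing5 belongs to complexes of HBO1. Ing2 held 3.08, 5.01 and 2.76 CPM and then 1.27, 0.782 and 0.879 CPM. Ing5 held 1.32, 3.76 and 2.63 CPM and then 1.27, 1.02 and 1.46 CPM, and its stages overlapped.

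In the neural lists 1 gene each met the rule. Of the windows with enough input 5.26% of the neural stem and progenitor list, 5.88% of the neuron list and 6.67% of the synapse list fell to input, against 6.71% of all. Of 13 marked neural stem and progenitor genes only Hes1 (chr16:30065357-30067796), the Notch effector that keeps progenitors undifferentiated, fell, with 3.96, 2.76 and 3.02 CPM and then 1.27, 1.56 and 1.76 CPM. The other 12 had a median wild-type change of -1.08 log2, so they fell about as much as marked windows in general and stayed above input. Of 19 marked genes of the Notch, Wnt, Hedgehog and BMP pathways 2 fell, Hes1 and the Notch transcription factor gene Rbpj, which held 2.42, 3.26 and 3.42 CPM and then 1.43, 1.64 and 1.05 CPM. Of 4 marked neuron genes 1 fell, Mapt, which encodes tau, with 1.98, 1.75 and 2.89 CPM and then 1.12, 1.02 and 1.52 CPM. Of 4 marked synapse genes 1 fell, Syn2, a synaptic vesicle protein gene, with 4.40, 5.76 and 3.28 CPM and then 2.47, 1.17 and 1.17 CPM. None of the 4 marked oligodendrocyte lineage genes, 2 astrocyte genes or 1 mesenchymal gene fell, and transcription factor genes of other lineages had 0 marked windows among 19.

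The part of the gene body outside the window was not used by the rule and was tested between stages over 21752 genes with edgeR's quasi-likelihood test. None of the 1233 fall-to-input genes tested passed an adjusted p of 0.05 in either direction, against 2 genes lower (0.00919%) and 5 higher (0.023%) of all tested. At an unadjusted p under 0.05 there were 155 of 1233 (12.6%), against 281 of 2034 other marked genes (13.8%) and 10.8% of all genes. The median change of the fall-to-input genes was 0.05 log2, against 0.04 in other marked genes and 0.00 over all genes. Of the 1233 genes 1179 (95.6%) lay within 0.5 log2 of 0. All 3 differentiating CPM values lay above all 3 proliferating ones in 189 genes (15.3%, against 10.5% of all), and below in 71 (5.76%, against 6.44% of all). Together the bodies outside the windows held 6.11 ± 0.0586% of the gene body counts in proliferating and 6.25 ± 0.06% in differentiating cells (SD, n = 3). The bodies of other marked genes went from 10.9 ± 0.115% to 11.2 ± 0.115%. Those of all genes with enough input went from 69.6 ± 0.473% to 70.3 ± 0.1%. The total includes the windows, which took a smaller share of it in differentiating cells. The other 61 genes were not tested, 9 of them because the window covers the whole gene.

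Mir9-3hg (chr7:79500026-79534403) came nearest to a call in the body. Outside its window it held 75.7, 81.4 and 81.6 CPM in proliferating and 54.3, 43.6 and 46.8 CPM in differentiating cells. The change was -0.74 log2 (SE 0.10) with an edgeR adjusted p of 0.0781, and an adjusted p of 0.0256 without proliferating replicate 1. Its window held 2.42, 3.51 and 3.81 CPM and then 1.12, 1.17 and 0.703 CPM. DESeq2 called Mir9-3hg (adjusted p = 6.2e-06) and 4 more fall-to-input genes, where it called 0.143% of all genes lower and 0.0828% higher. These were Dmrta2, a factor of cortical progenitors (-0.89 log2), Fos (-1.16 log2) and the antiproliferative gene Btg2 (-0.92 log2), which were lower in differentiating cells, and the RNA-binding protein gene Rbm48 (0.91 log2), which was higher. They are named because an alternative called them. In edgeR's test these 4 had adjusted p-values of 0.213 for Dmrta2, 0.242 for Fos, 0.229 for Btg2 and 0.168 for Rbm48.

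A test of the windows themselves repeats the contrast that chose them and is given as a description. With TMM scaling, edgeR called 247 of 1293 tested fall-to-input windows lower (19.1%), against 4.42% of all 19477 windows and 345 of 2096 other marked windows (16.5%), and called 0 higher, against 2.04% of all. This count fell to 77 without proliferating replicate 3, 158 without proliferating replicate 2, 120 without differentiating replicate 2 and 86 without differentiating replicate 3. TMM sets the median of all windows near 0 (0.03 log2), and gene body totals set it at -0.47. The fall-to-input windows had medians of -0.60 log2 with TMM and -1.10 log2 with gene body totals, where 1025 were called lower, against 25.7% of all windows. With TSS totals in place of gene body totals, 380 windows met the rule, 295 of them among the 1294.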

How the data were processed

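H3K14ac ChIP, input, IgG and Hbo1 null ChIP libraries of mouse neural stem and progenitor cells (12 in all) were analysed from the counts that the authors deposited: raw counts per TSS window of 1 kb and per gene body for 27095 genes, with gene length in bases. Per the submitters' processing notes, bcl2fastq, featureCounts and mm10 were used; versions, aligner and window position are not given in the sources used here. Gene IDs matched RefSeq for 25204 genes. CPM are counts per 1000000 gene body counts, including the window.

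The windows and gene lists were chosen with earlier results of these data known. Gene body counts minus window counts, and window counts, were tested in R 4.3.3 with edgeR 4.0.16 (TMM, mean count of at least 10 over the 6 wild-type libraries, quasi-likelihood test, two-sided, Benjamini-Hochberg over all genes, threshold 0.05). The procedure was tested on simulated data. Alternatives included DESeq2 1.42.0. SE is the log2 change over the square root of F. Named genes are the 8 with the highest summed proliferating count, the 8 with the largest P minus D among those with a count of at least 60, up to 2 per list, and 3 on each side of a threshold. Predicted and clone names were left out of the first 2 of these. Genes named beyond this rule are said to be so, or complete the list they stand in. Controls with 1 library per stage have no test, and intervals are 95% Poisson intervals.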

Additional observations from a re-analysis of the deposited data

How the results depend on the processing

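The number of fall-to-input windows was 33 with an input minimum of 20 and 380 with TSS totals, against 1294. Leaving out a wild-type library gave 1074 to 1567. Adding 5 instead of 1 to the counts gave 1181 windows, but only 700 of the 1294 (54.1%) were among them. The window calls were 1025 with gene body totals without TMM, 132 with DESeq2 and 77 to 251 with a library left out, against 247. In gene bodies outside the window, DESeq2 called 4 members lower and 1 higher, and leaving out a library gave 0 to 1 lower and 0 higher, against 0 and 0. The IgG change over the windows was -0.16 log2 with TSS totals and -0.23 log2 in windows with an input count of 20 or more, against -0.36. The null change for the latter could not be computed, since a sum was 0. In alternatives chosen after seeing the data, TSS totals gave a wild-type change of -0.66 log2, against -1.13, and of -0.55 log2 in the other marked windows, against -1.03; leaving out a library gave -1.23 to -1.06 and -1.13 to -0.94.

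The labels do not say that replicate numbers pair libraries across stages. Deviations of same-numbered libraries had correlations of -0.011, -0.026 and 0.00 in windows and -0.241, 0.205 and -0.36 in bodies, so the numbers were not used to pair. With the replicate block, the window calls were 156, and those in bodies 0 lower and 0 higher.

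Of the 14 strongest and steepest named windows, 2 met the rule with an input minimum of 20, 10 with the summed input, 10 with IgG, 13 with TSS totals and 13 to 14 with a library left out. Depth limits single windows, which rest on 10 to 32 input counts and about 3 IgG counts, and in the null libraries on less than 1 on average. The controls were not replicated, and the IgG, null and 2 wild-type libraries differed from the inputs in Y-linked counts.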
